A study of Mus musculus with 6 samples.

Results

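Macrophage and dendritic cell genes were examined in RNA from Thy1.2+ cells of the fetal mouse thymus. The set held 42 genes, given as a list and found by symbol in the annotation of the array's probe sets, and each of the 42 was measured by 1 probe set among 19937 genes. All cells came from E17.5 embryos of genotype Rag1-/-, in which T cell receptor genes are not rearranged and thymocytes stop before beta-selection. The 3 groups of 2 arrays were cells given anti-CD3 and a Bcl6 inhibitor at 50 µM for 40 h, cells given anti-CD3 and the vehicle DMSO over the same time, and fresh cells at 0 h, without stimulation. The inhibitor is a small molecule that binds the BTB domain of Bcl6 and blocks its corepressors, and the plots carry its own name beside the word inhibitor. Anti-CD3 stands in for the missing pre-T cell receptor signal. The series design speaks of fetal thymic organ cultures and of sorted cells, whereas the sample labels speak of stimulation and magnetic purification. DMSO against fresh cells therefore compares culture, time, vehicle and anti-CD3 together, and inhibitor and DMSO cells differ by their labels only in the compound. The labels do not say whether replicates came from separate litters or cultures, so p-values measure the spread between these arrays, which may be technical.

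Macrophages and dendritic cells are bone marrow or yolk sac derived leukocytes that take up dead cells and antigen. In the thymus macrophages clear the many thymocytes that die, and dendritic cells present antigen on major histocompatibility complex (MHC) class II molecules. Both carry receptors for antibody and for microbial sugars that signal through the adaptors Fcer1g and Tyrobp, which hold tyrosine activation motifs, and both depend on the transcription factor PU.1, which binds purine-rich ETS sites in myeloid promoters. Several of the 42 genes are not exclusive to these cells: Laptm5, Ctsb, Flt3 and Axl are used in other haematopoietic or stromal cells, and class II genes are also used by thymic epithelium and B cells. In RNA from a mixture, more cells of a type and more RNA per cell cannot be told apart.

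Promoters of the set are shown first because PU.1 and class II regulators are known to act there. RefSeq (build GRCm38.p6) gave 300-base windows, 250 bases before and 50 after the gene start, for 31 of the 42 genes. The PU.1 and ETS letters GAGGAAGT, searched on both strands, occurred in the windows of Ctss and C1qc, or 2 of 31, against 3.69% of 27025 genes. The shorter letters GAGGAA, which the longer motif contains, occurred in 18 of 31 windows against 31.3% of genes. The letters CTGATTGG, a form of the class II Y box that was searched for after the values were seen, occurred in H2-Aa and H2-Eb1, or 2 of 31, against 4.7% of genes. A match is a run of letters and not a measured binding site. Windows are printed 5′ to 3′ on the strand of the gene, with the match in capitals, and distances run to the first printed base of the match. Ctss lies at chr3:95526536-95526835 on the plus strand and its match reads GAGGAAGT on the opposite strand. The match begins 2 bases before the start and runs past it. In Ctss only the longer letters are in capitals, and a further GAGGAA is not marked. Cybb lies at chrX:9469275-9469574 on the minus strand, and its match reads GAGGAA on the opposite strand, 9 bases after the start. H2-Aa lies at chr17:34287774-34288073 on the minus strand, with the Y box 51 bases before the start, and H2-Eb1 at chr17:34305617-34305916 on the plus strand, with it 62 bases before the start. Ctss and Cybb belong to the genes that were higher after culture. C1qc, the other gene with the longer letters, was not called in DMSO against fresh cells. With the shorter letters, Clec7a, Fcgr1, Fcgr3, Itgam, Laptm5 and Trem2 were also called higher there. Aif1, Axl, Batf3, C1qb, Cd68, Marco, Mrc1, Siglech and Vsig4 carry them too and were not called. A link between letters and changes was not tested. H2-Aa and H2-Eb1 belong to the class II genes whose DMSO arrays differed between replicates.
Ctss: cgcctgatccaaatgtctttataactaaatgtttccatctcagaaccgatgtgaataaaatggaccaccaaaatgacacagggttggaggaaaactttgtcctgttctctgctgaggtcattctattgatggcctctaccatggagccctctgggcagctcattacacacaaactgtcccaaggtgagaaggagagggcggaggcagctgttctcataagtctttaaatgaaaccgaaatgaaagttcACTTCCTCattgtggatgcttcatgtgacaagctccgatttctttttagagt
Cybb: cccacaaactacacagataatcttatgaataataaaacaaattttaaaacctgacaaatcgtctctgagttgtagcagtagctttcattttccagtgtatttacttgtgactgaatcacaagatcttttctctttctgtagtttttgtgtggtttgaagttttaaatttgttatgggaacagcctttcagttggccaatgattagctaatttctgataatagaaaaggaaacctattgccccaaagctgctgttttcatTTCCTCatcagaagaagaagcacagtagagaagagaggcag
H2-Aa: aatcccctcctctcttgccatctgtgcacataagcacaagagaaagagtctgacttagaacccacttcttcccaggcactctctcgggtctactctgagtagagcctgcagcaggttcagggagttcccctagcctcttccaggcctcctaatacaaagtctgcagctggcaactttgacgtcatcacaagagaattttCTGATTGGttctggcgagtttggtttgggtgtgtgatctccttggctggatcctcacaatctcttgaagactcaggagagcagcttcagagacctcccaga
H2-Eb1: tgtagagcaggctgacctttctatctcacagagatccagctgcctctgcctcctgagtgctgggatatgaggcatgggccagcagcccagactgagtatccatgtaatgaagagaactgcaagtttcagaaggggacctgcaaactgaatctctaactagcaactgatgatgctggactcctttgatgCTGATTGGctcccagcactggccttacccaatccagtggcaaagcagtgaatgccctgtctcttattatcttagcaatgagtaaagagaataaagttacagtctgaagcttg

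Values are log2 of the intensity deposited for each array. Arrays give no counts, so the number of arrays limits the precision, and levels are not compared between genes because probe sets differ in brightness. Replicate arrays correlated at 0.997 to 0.998 over all genes. Thy1, which encodes the antigen used for purification, read 13.05 and 13.08 in inhibitor arrays, 13.20 and 13.26 in DMSO arrays, and 12.82 and 12.78 in fresh arrays. It rose by 0.43 in DMSO against fresh cells (limma, adjusted p = 0.0053). Among the macrophage and dendritic cell genes, replicate 2 of the fresh arrays read higher than replicate 1 in 38 of 42 genes, with a median difference of 0.58, and 29 genes lay above 0.25, the 95th percentile of that difference over all genes. The sign was mostly the same in the other groups but the size was smaller: replicate 2 was higher in 35 of 42 genes with a median of 0.12 between inhibitor arrays, and in 33 of 42 with a median of 0.08 between DMSO arrays. Over all genes it was higher in 55.4% of inhibitor, 52.9% of DMSO and 49.6% of fresh cases. Within the fresh group it was 0.71 for the monocyte and macrophage identity genes, 0.68 for complement C1q, 0.70 for Fc and lectin receptors, 0.22 for dendritic cell genes and 0.17 for class II genes. For each gene called in DMSO against fresh cells, and for the counts against fresh cells, values without each fresh array are therefore given too.

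**Figure D1:**
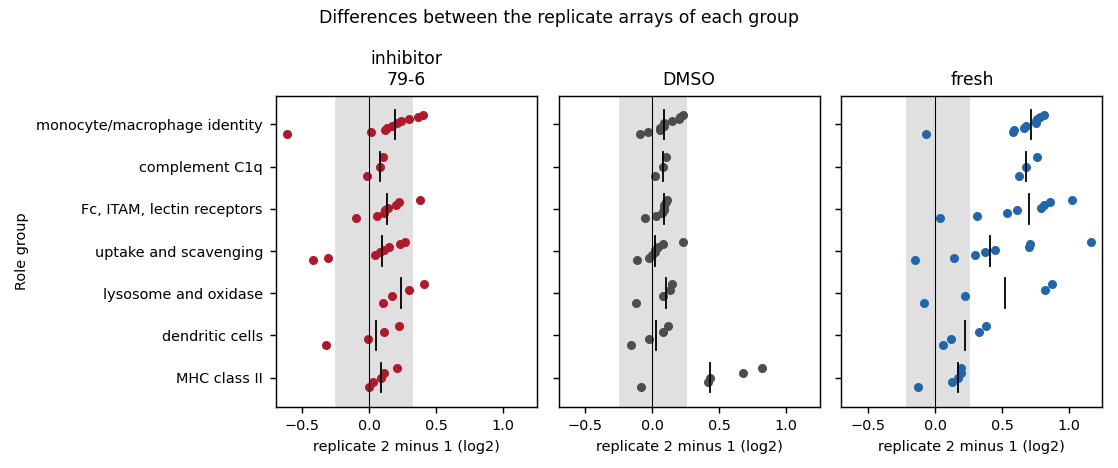
Difference between replicate 2 and replicate 1 in log2 intensity for each of the 42 genes, by group of arrays, drawn by role group, with the median of each role group as a bar and the 5th to 95th percentile of all genes as the shaded range. In fresh cells 29 genes lie above that range, against 4 in inhibitor cells and 4 in DMSO cells.

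Across the set, the arrays ordered as inhibitor, DMSO and fresh from high to low. The summed intensity of the 42 genes was 73108 and 80712 in inhibitor arrays, 52481 and 56842 in DMSO arrays, and 27166 and 36695 in fresh arrays, and no 2 groups overlapped. Without Lyz2, whose intensity spanned the widest range, the sums were 63754 and 69661 in inhibitor arrays, 43884 and 48403 in DMSO arrays, and 26720 and 35944 in fresh arrays. The median deviation of the genes from their own mean over all arrays was 0.48 and 0.58 in inhibitor arrays, -0.02 and 0.10 in DMSO arrays, and -0.79 and -0.27 in fresh arrays. Differences were tested with limma on all 6 arrays, and a gene was called at a Benjamini-Hochberg adjusted p under 0.05 over 19937 genes. Errors after ± are limma standard errors of a log2 change, with 2 arrays in each group.

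**Figure D2:**
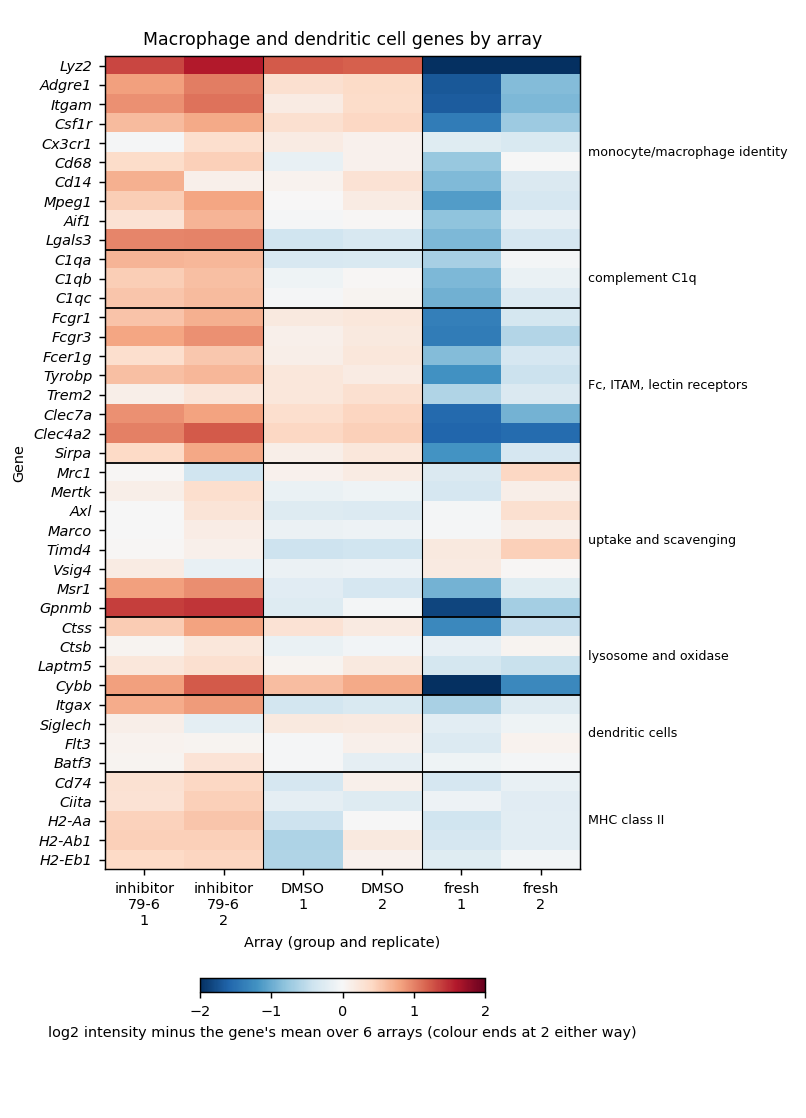
Log2 intensity of each of the 42 genes (rows, in 7 role groups) in each array (columns), minus the mean of that gene over 6 arrays. Fresh replicate 1 is the lowest array for most genes above the uptake group, and the inhibitor arrays are the highest for many genes, among them Lgals3, Gpnmb, Itgax and Msr1.

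In cells stimulated in DMSO, against fresh cells, 16 of 42 genes rose and 1 fell. Over all genes tested, 8.89% were called higher and 10.7% lower. The median change of the 42 genes was 0.44, against 0.02 over all genes, and 34 of the 42 changes were positive. The calls lay in the macrophage identity genes (5 of 10), the Fc, adaptor and lectin receptors (8 of 8) and the lysosome and oxidase genes (3 of 4). No complement C1q, dendritic cell or class II gene was called by limma. At an unadjusted p under 0.05 these counts were 1 of 3, 1 of 4 and 0 of 5, each in the higher direction. Over all 19937 genes, limma gave 2963 higher and 3189 lower at that unadjusted p. The number of genes called higher was 15 without fresh replicate 1 and 24 without fresh replicate 2, and 10 without DMSO replicate 1 and 9 without DMSO replicate 2. Without fresh replicate 2 the added calls were Aif1, C1qb, C1qc, Cd14, Cd68, Gpnmb, Lgals3 and Msr1. Without fresh replicate 1 the estimates of Cd68, Lgals3 and Msr1 were -0.03, -0.03 and -0.05, and Axl was called lower at -0.60 (limma, adjusted p = 0.0322).

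Lyz2, which encodes the lysozyme of macrophages and neutrophils, read 13.07 and 13.04 in DMSO arrays against 8.80 and 9.55 in fresh arrays. It had the largest change of the set, a log2 change of 3.88 ± 0.22 or 14.7-fold (limma, adjusted p = 5.1e-05), and the change was 3.5 without fresh replicate 1 and 4.25 without fresh replicate 2. Adgre1 encodes an adhesion receptor on the surface of mouse macrophages and is widely used to mark them. It read 9.63 and 9.70 in DMSO arrays against 7.62 and 8.44 in fresh arrays, a log2 change of 1.63 ± 0.23 (limma, adjusted p = 0.00275). Itgam, the CD11b integrin chain of myeloid cells, read 8.77 and 8.97 in DMSO arrays against 6.94 and 7.70 in fresh arrays, a change of 1.55 ± 0.22 (limma, adjusted p = 0.00291). Csf1r is the receptor on which macrophage survival depends. It read 9.41 and 9.50 in DMSO arrays against 7.69 and 8.37 in fresh arrays, a change of 1.43 ± 0.19 (limma, adjusted p = 0.00234). In these 4 genes both DMSO arrays lay above both fresh arrays, and each call held without any 1 array. Without fresh replicate 1 the changes of Adgre1, Itgam and Csf1r were 1.23, 1.17 and 1.09, and without fresh replicate 2 they were 2.04, 1.93 and 1.77.

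Mpeg1, which encodes the pore-forming protein perforin-2 of macrophages, was called with a change of 0.81 ± 0.23 (limma, adjusted p = 0.0498). Its DMSO arrays at 9.71 and 9.87 were both above fresh replicate 2 at 9.37, and the call was lost without any 1 array except fresh replicate 2. Its change was 0.42 without fresh replicate 1 and 1.20 without fresh replicate 2. The remaining identity genes did not pass the test. Cd14, a coreceptor for lipopolysaccharide, had an estimate of 0.76 ± 0.24 (limma, adjusted p = 0.0686). Cx3cr1, the fractalkine receptor, had an estimate of 0.40 ± 0.12 (limma, adjusted p = 0.0569) and Aif1, a calcium-binding protein of macrophages, one of 0.49 ± 0.21 (limma, adjusted p = 0.173). For Cd68, a lysosomal glycoprotein, the DMSO arrays read 9.90 and 10.13 against 9.29 and 10.04 in fresh arrays, so the groups overlapped. Lgals3, which encodes galectin-3, likewise overlapped, at 11.46 and 11.55 in DMSO arrays and 10.96 and 11.53 in fresh arrays.

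The receptor and adaptor group was the only role group in which every gene was called in this comparison. Clec4a2, an inhibitory C-type lectin of dendritic cells and macrophages, read 7.43 and 7.50 in DMSO arrays against 5.44 and 5.49 in fresh arrays. Its change of 2.00 ± 0.09 or 4-fold (limma, adjusted p = 2.2e-05) came with 2 fresh arrays that differed little, unlike most of the set. Whether these low fresh values lay near the background of the arrays was not tested. Clec7a, the beta-glucan receptor Dectin-1, read 9.74 and 9.83 in DMSO arrays against 7.85 and 8.46 in fresh arrays, a change of 1.63 ± 0.18 (limma, adjusted p = 8.5e-04). Trem2, a lipid receptor that signals through Tyrobp, read 7.98 and 8.07 in DMSO arrays against 7.15 and 7.46 in fresh arrays, a change of 0.72 ± 0.11 (limma, adjusted p = 0.00422). These 3 calls held without any 1 array. Without fresh replicate 1 the changes of Clec4a2, Clec7a and Trem2 were 1.98, 1.33 and 0.57, and without fresh replicate 2 they were 2.02, 1.93 and 0.88.

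The antibody receptors and their adaptors had changes near 1 on the log2 scale. Fcgr3, a low-affinity receptor for immunoglobulin G, read 9.99 and 10.08 in DMSO arrays against 8.49 and 9.30 in fresh arrays, a change of 1.14 ± 0.23 (limma, adjusted p = 0.012). Tyrobp, the DAP12 adaptor, read 11.63 and 11.57 in DMSO arrays against 10.19 and 10.98 in fresh arrays, a change of 1.01 ± 0.22 (limma, adjusted p = 0.0169). Fcer1g, the shared gamma chain, read 12.28 and 12.39 in DMSO arrays against 11.29 and 11.82 in fresh arrays, a change of 0.78 ± 0.17 (limma, adjusted p = 0.0162). The groups did not overlap in any of the 3, but each call was lost without either DMSO array. Fcgr1, the high-affinity receptor, changed by 1.07 ± 0.28 (limma, adjusted p = 0.0345), with fresh arrays at 7.91 and 8.93. Sirpa, which binds CD47 and restrains phagocytosis, changed by 0.94 ± 0.26 (limma, adjusted p = 0.043). The calls of Fcgr1 and Sirpa were lost without either DMSO array or either inhibitor array, and that of Sirpa also without fresh replicate 1. All 5 changes moved with the fresh array used. Without fresh replicate 1 they were 0.74 for Fcgr3, 0.62 for Tyrobp, 0.51 for Fcer1g, 0.56 for Fcgr1 and 0.50 for Sirpa, and without fresh replicate 2 they were 1.55, 1.40, 1.05, 1.58 and 1.37 in the same order.

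Among the lysosome and oxidase genes, Cybb had the largest change. It encodes the catalytic chain of the phagocyte NADPH oxidase, which makes superoxide, and its promoter is printed above. Cybb read 11.40 and 11.54 in DMSO arrays against 8.62 and 9.49 in fresh arrays, a change of 2.41 ± 0.26 or 5.33-fold (limma, adjusted p = 8.9e-04). The change was 1.98 without fresh replicate 1 and 2.85 without fresh replicate 2. Ctss, the cathepsin that degrades the invariant chain in antigen-presenting cells, read 9.91 and 9.80 in DMSO arrays against 8.33 and 9.16 in fresh arrays, a change of 1.11 ± 0.24 (limma, adjusted p = 0.0172) that was not called without either DMSO array. Laptm5, a lysosomal membrane protein that lymphocytes also express, changed by 0.52 ± 0.08 (limma, adjusted p = 0.00464). Without fresh replicate 1 the changes of Ctss and Laptm5 were 0.70 and 0.56, and without fresh replicate 2 they were 1.52 and 0.48. Ctsb, a cathepsin of most cell types, read 11.59 and 11.67 in DMSO arrays against 11.57 and 11.79 in fresh arrays, and the groups overlapped.

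The receptors for apoptotic cells and modified lipids differed from the rest. Timd4, a phosphatidylserine receptor of tissue-resident macrophages, was the 1 gene of the set that fell. It read 7.55 and 7.57 in DMSO arrays against 8.15 and 8.44 in fresh arrays, a change of -0.73 ± 0.10 (limma, adjusted p = 0.00285), and the call held without any 1 array. The change was -0.88 without fresh replicate 1 and -0.59 without fresh replicate 2. Axl, a receptor kinase that binds phosphatidylserine through Gas6, read 8.37 and 8.36 in DMSO arrays against 8.59 and 8.96 in fresh arrays, but did not pass the test (-0.41 ± 0.14, limma, adjusted p = 0.083). Its relative Mertk had an estimate of 0.00 ± 0.15. The mannose receptor gene Mrc1 had an estimate of 0.06 ± 0.23, and the scavenger receptor Marco one of -0.16 ± 0.09. Vsig4, a complement receptor of resident macrophages, lay between 4.22 and 4.54 in every array and was the 1 gene of the set among the dimmest 25% of all genes. Msr1, the class A scavenger receptor, read 9.35 and 9.24 in DMSO arrays against 8.63 and 9.34 in fresh arrays, and the groups overlapped. Gpnmb, a glycoprotein of lipid-laden macrophages and osteoclasts, narrowly missed the threshold (1.10 ± 0.32, limma, adjusted p = 0.0501), and its change was 0.52 without fresh replicate 1 and 1.68 without fresh replicate 2.

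The complement C1q, dendritic cell and class II genes had no call in the fit of all 6 arrays. The C1q chains form the recognition part of the classical complement pathway and come mainly from macrophages. The estimates were 0.04 ± 0.18 for C1qa, 0.47 ± 0.21 for C1qb and 0.64 ± 0.19 for C1qc, with limma adjusted p of 0.924, 0.187 and 0.0589. C1qb and C1qc read higher in both DMSO arrays than in both fresh arrays, whereas C1qa overlapped. Without fresh replicate 2 limma called C1qb (0.86, adjusted p = 0.00343) and C1qc (0.98, adjusted p = 0.00188), and without fresh replicate 1 their estimates were 0.09 and 0.30. Itgax, the CD11c integrin chain of dendritic cells, read 7.01 and 7.08 in DMSO arrays against 6.74 and 7.12 in fresh arrays. Siglech, a lectin of plasmacytoid dendritic cells, had an estimate of 0.33 ± 0.11, Flt3, the cytokine receptor of dendritic cell progenitors, one of 0.14 ± 0.11, and Batf3, a factor of cross-presenting dendritic cells, one of -0.04 ± 0.10. The 5 class II genes had estimates between -0.11 and 0.13.

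**Figure D3:**
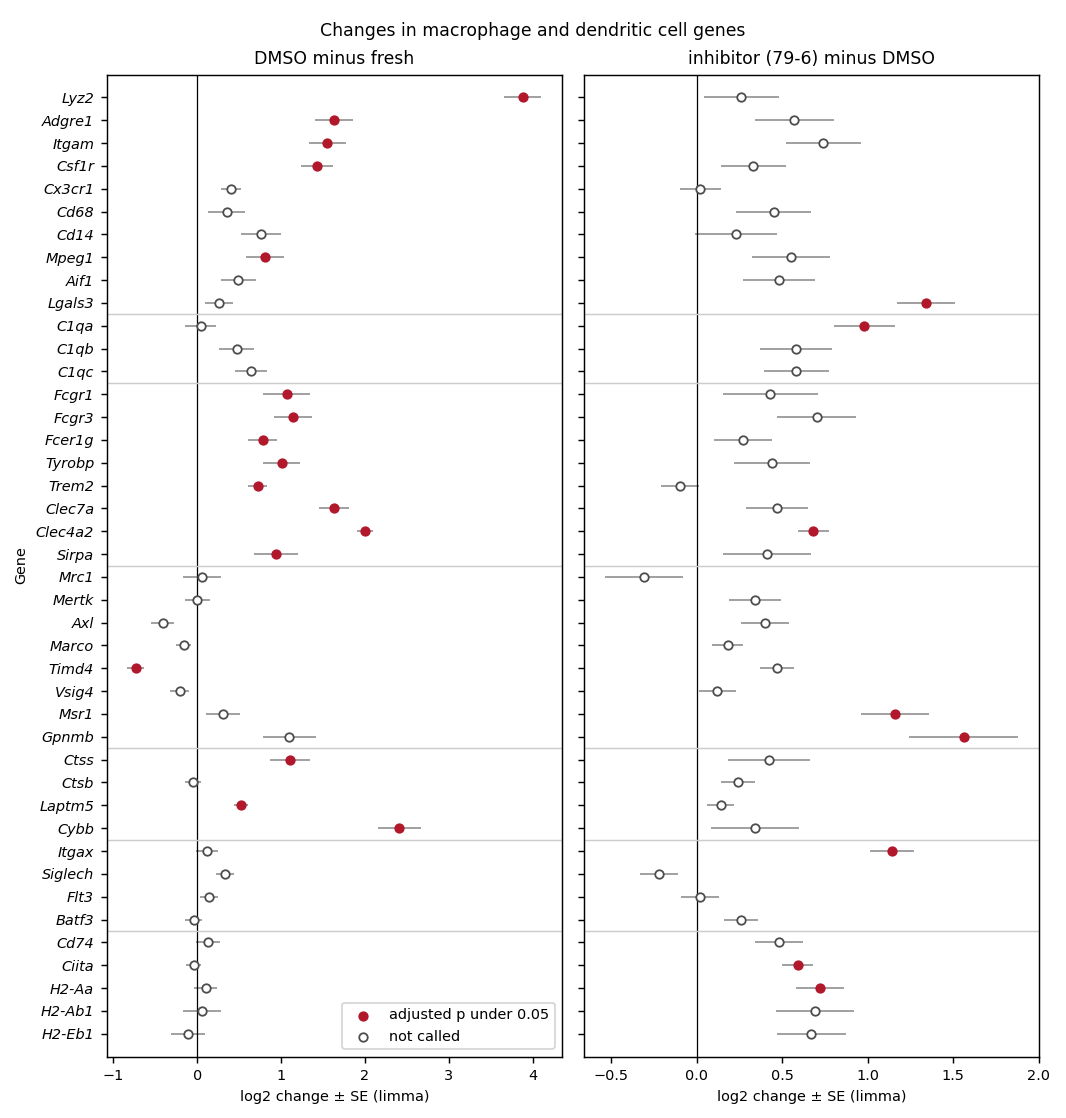
Log2 change of each of the 42 genes (rows) with limma standard errors, DMSO minus fresh on the left and inhibitor minus DMSO on the right, and filled points called at an adjusted p under 0.05. The left panel has 17 filled points and the right panel 8, and both panels use the DMSO arrays.

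In cells stimulated with the inhibitor, against DMSO, 8 of 42 genes rose and 0 fell. Over all genes tested, 2.38% were called higher and 1.98% lower. At an unadjusted p under 0.05, limma gave 22 of the 42 genes higher and 0 lower, against 2129 higher and 1950 lower of all 19937 genes. The median change was 0.45, against 0.02 over all genes, with 39 of 42 positive. Both inhibitor arrays lay above both DMSO arrays in 35 of 42 genes (83.3%), as they did in 26.8% of all genes. The 8 called genes were Lgals3, C1qa, Clec4a2, Msr1, Gpnmb, Itgax, Ciita and H2-Aa, from 6 of the 7 role groups. None of the 8 calls held under every array left out. The number called higher was 0 without DMSO replicate 1 or without inhibitor replicate 2, 3 without DMSO replicate 2, 4 without inhibitor replicate 1, and 16 in a fit of only the 4 arrays compared or without either fresh array.

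Gpnmb had the largest of these changes. It read 11.23 and 11.27 in inhibitor arrays against 9.58 and 9.81 in DMSO arrays, a change of 1.56 ± 0.32 or 2.94-fold (limma, adjusted p = 0.0442). Lgals3 read 12.84 and 12.85 in inhibitor arrays against 11.46 and 11.55 in DMSO arrays, a change of 1.34 ± 0.17 or 2.54-fold (limma, adjusted p = 0.0103). Galectin-3 is abundant in activated macrophages, and it is also made by other cells. Msr1 read 10.40 and 10.51 in inhibitor arrays against 9.35 and 9.24 in DMSO arrays, a change of 1.16 ± 0.20 (limma, adjusted p = 0.0286). Itgax read 8.12 and 8.24 in inhibitor arrays against 7.01 and 7.08 in DMSO arrays, a change of 1.14 ± 0.13 (limma, adjusted p = 0.00732). C1qa read 9.54 and 9.53 in inhibitor arrays against 8.54 and 8.56 in DMSO arrays, a change of 0.98 ± 0.18 (limma, adjusted p = 0.032). In all 5 genes the gap between the groups was wider than the difference between replicates. Of these 5, Gpnmb, Msr1 and C1qa lost the call without any 1 of the 4 arrays compared, and Lgals3 and Itgax without any of them but inhibitor replicate 1. The lowest change any of these settings gave was 1.44 for Gpnmb, 1.30 for Lgals3, 1.10 for Msr1, 1.08 for Itgax and 0.97 for C1qa.

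**Figure D4:**
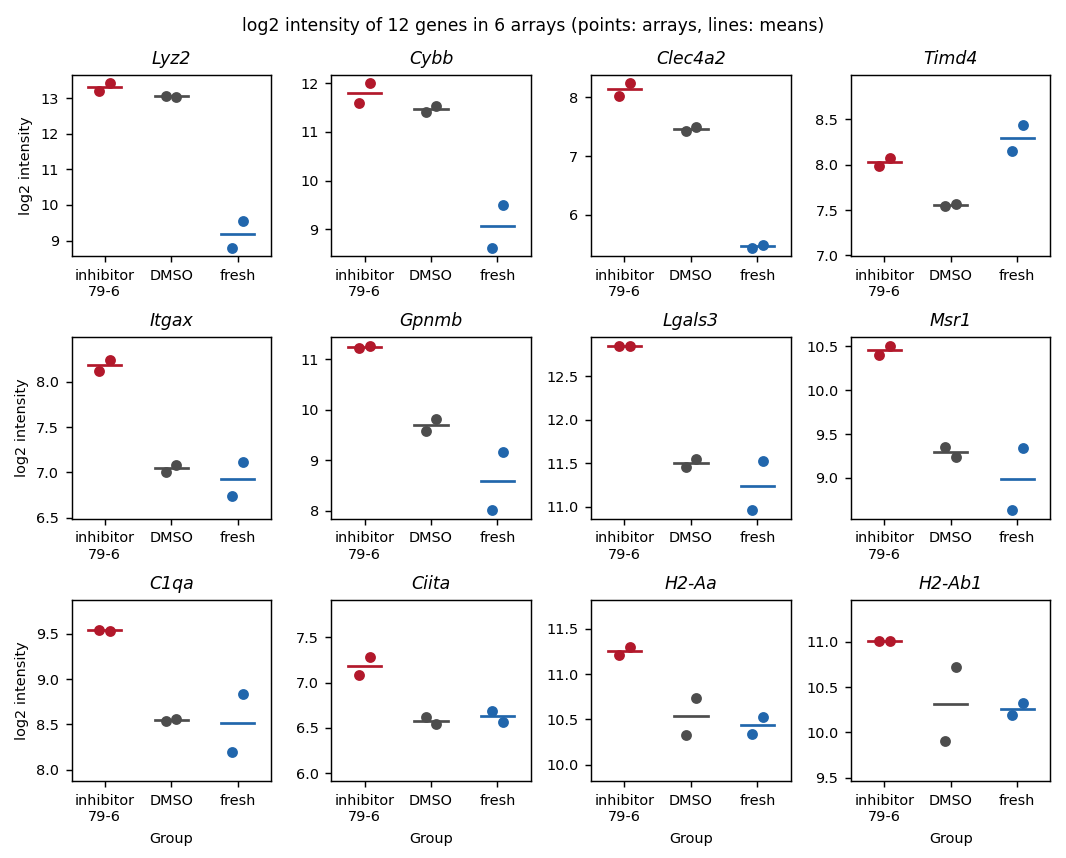
Log2 intensity of 12 genes in each array (points) with the mean of each group (bar), in the order inhibitor, DMSO, fresh. Lyz2, Cybb and Clec4a2 differ mainly between the stimulated groups and fresh cells, and Lgals3, Msr1, Itgax and C1qa between inhibitor and the other groups.

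Lyz2 and Cybb, which had the largest changes in DMSO against fresh cells, had estimates here below the set's median of 0.45. The next genes in size, Clec4a2, Adgre1, Clec7a and Itgam, lay above it, and both comparisons share the DMSO arrays. Lyz2 read 13.19 and 13.43 in inhibitor arrays against 13.07 and 13.04 in DMSO arrays (0.26 ± 0.22, limma, adjusted p = 0.564), and Cybb 11.60 and 12.01 against 11.40 and 11.54 (0.34 ± 0.26, limma, adjusted p = 0.527). Clec4a2 was the 1 gene called in both comparisons, at 8.03 and 8.25 in inhibitor arrays against 7.43 and 7.50 in DMSO arrays (0.68 ± 0.09, limma, adjusted p = 0.0125), a call that without any 1 of those 4 arrays held only when inhibitor replicate 1 was the one left out. Adgre1 at 0.57 ± 0.23, Itgam at 0.74 ± 0.22 and Csf1r at 0.33 ± 0.19 did not pass the test, with limma adjusted p of 0.222, 0.118 and 0.398. Timd4, the gene that was lower in DMSO than in fresh cells, read 7.99 and 8.07 in inhibitor arrays against 7.55 and 7.57 in DMSO arrays, and narrowly missed the threshold (0.47 ± 0.10, limma, adjusted p = 0.0552). Only 3 estimates were below 0, those of Trem2 (-0.10 ± 0.11), Mrc1 (-0.31 ± 0.23) and Siglech (-0.22 ± 0.11). In a fit of only the 4 arrays compared, Adgre1, Itgam, C1qb, C1qc, Clec7a, Fcgr3, Timd4 and Tyrobp were called too, with limma adjusted p between 0.0124 and 0.042.

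All 5 class II genes were higher in both inhibitor arrays than in both DMSO arrays, and 2 were called. Class II alpha and beta chains bind the peptides shown to CD4 T cells, Cd74 is the invariant chain that guides them, and Ciita is the coactivator that switches on their promoters. Ciita read 7.08 and 7.28 in inhibitor arrays against 6.62 and 6.54 in DMSO arrays, a change of 0.59 ± 0.09 (limma, adjusted p = 0.0215). H2-Aa, whose promoter is printed above, read 11.21 and 11.30 in inhibitor arrays against 10.33 and 10.74 in DMSO arrays, a change of 0.72 ± 0.14 (limma, adjusted p = 0.0379). Leaving out any 1 of those 4 arrays ended the call of Ciita except for inhibitor replicate 1, and that of H2-Aa except for DMSO replicate 2. H2-Ab1 read 11.01 and 11.01 in inhibitor arrays against 9.91 and 10.72 in DMSO arrays (0.69 ± 0.23, limma, adjusted p = 0.146). H2-Eb1 read 10.21 and 10.24 in inhibitor arrays against 9.21 and 9.89 in DMSO arrays (0.67 ± 0.20, limma, adjusted p = 0.112). The spread lay in the DMSO arrays, where replicate 2 exceeded replicate 1 by 0.82 in H2-Ab1 and 0.68 in H2-Eb1. Without DMSO replicate 2 the changes were 1.10 and 1.01, with limma adjusted p of 0.0223 and 0.0328, and without DMSO replicate 1 neither was called. Thymic epithelial genes moved the same way between those replicates: their summed intensity was 5044 in DMSO replicate 1 and 7224 in replicate 2, and 15 of 18 read higher in replicate 2. Their part in the class II values was not tested.

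In cells stimulated with the inhibitor, against fresh cells, 31 of 42 genes rose and 0 fell, while 12.0% of all genes were called higher and 13.9% lower. At an unadjusted p under 0.05, limma gave 32 of the 42 genes higher and 1 lower, against 3866 higher and 3686 lower of all 19937 genes. The median change was 1 on the log2 scale, against 0.05 over all genes. All 10 identity genes, all 3 C1q genes and all 8 receptor and adaptor genes were called, with 3 of 4 lysosome and oxidase genes, 4 of 5 class II genes, 2 of 8 uptake receptors (Msr1 and Gpnmb) and 1 of 4 dendritic cell genes (Itgax). Lyz2 had the largest change (4.13 ± 0.22, 17.6-fold, limma, adjusted p = 3.4e-05). Cybb followed at 2.75 ± 0.26, then Clec4a2 at 2.68 ± 0.09 and Gpnmb at 2.66 ± 0.32, the last with a limma adjusted p of 0.00104. Without fresh replicate 1 these 4 changes were 3.76, 2.32, 2.66 and 2.08, and without fresh replicate 2 they were 4.51, 3.19, 2.70 and 3.24. The genes without a call were Mrc1, Mertk, Axl, Marco, Timd4, Vsig4, Ctsb, Siglech, Flt3, Batf3 and H2-Eb1, with estimates between -0.27 and 0.56. The calls of Aif1, C1qb, Cd14, Cd68, Cd74, Cx3cr1, H2-Ab1 and Sirpa were each lost in 1 or more of the fits that left out an array. The count called higher was 26 without fresh replicate 1 and 30 without fresh replicate 2, and without fresh replicate 1 Timd4 was called lower (-0.42, limma, adjusted p = 0.0347).

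A wider view came from 7 lists of other genes used in myeloid cells, none of them in the set of 42. Some, such as Cd8a, Ccr9, Itgae, Klrd1 and Runx1, are also lymphocyte genes, so the shares are not of myeloid genes alone. Of 166 entries 151 were measured. In DMSO against fresh cells 49 rose (32.5%, against 8.89% of all genes) and 20 fell (13.2%, against 10.7%). In inhibitor against DMSO 15 rose (9.93%, against 2.38%) and 1 fell (0.662%, against 1.98%). In inhibitor against fresh cells 85 rose (56.3%, against 12.0%) and 14 fell (9.27%, against 13.9%). The medians were 0.21, 0.26 and 0.49, against 0.02, 0.02 and 0.05 over all genes. Calls in these lists were not recomputed with arrays left out.

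Of 32 innate receptors and adaptors, 15 rose and 3 fell in DMSO against fresh cells. Clec4e, the lectin Mincle, changed by 2.26, the RNA sensor Tlr8 by 1.98 and the inhibitory receptor Pirb by 1.51, with limma adjusted p of 6.8e-05, 2.3e-04 and 8.8e-04. The kinases Syk and Btk, both also used in lymphocytes, fell by 0.84 and 0.37. Among growth factor and chemokine receptors 5 of 12 rose, led by the inflammatory chemokine receptors Ccr1 (2.04) and Ccr2 (1.82) and the shared cytokine chain Csf2rb (1.36), and Il34, an epithelial ligand of Csf1r, fell by 0.94. Lysosomal genes rose in 7 of 18 cases, led by Ctsc (1.12) and the acid lipase Lipa (0.93), while Pld4 fell by 1.94.

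The wider lists for residency and phagocytosis, dendritic cells and transcription factors were mixed in this comparison. Of 33 residency and phagocytosis genes 4 rose (12.1%) and 3 fell (9.09%), near the shares of all genes (8.89% and 10.7%). Ms4a6c was called at 1.84, Gas6, the ligand of Axl and Mertk, at -1.23 and the chemokine Ccl2 at -0.92. Of 25 dendritic cell genes 7 rose and 5 fell. The largest rises were those of Cd8a (4.36) and Ccr9 (2.42), which thymocytes also express, followed by the migration receptor Ccr7 (0.80), and the largest falls were those of Fscn1 (-1.77) and Wdfy4 (-1.73). Of 18 transcription factors 5 rose and 6 fell. Spi1, which encodes PU.1, rose by 0.61 (limma, adjusted p = 0.032), whereas Runx1, which thymocytes also use, fell by 1.20. Class II presentation genes rose in 6 of 13 cases, led by H2-Ob (1.68) and H2-Oa (1.26), which encode the chains of the peptide-exchange inhibitor DO.

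In inhibitor against DMSO, 6 of 25 dendritic cell genes rose and 0 fell, and limma gave 12 higher and 0 lower at an unadjusted p under 0.05. Over all 19937 genes, 2129 were higher and 1950 lower at that unadjusted p. The 6 called genes were Itgae (1.17, limma, adjusted p = 0.00354), Klrd1 (0.97, limma, adjusted p = 0.00959), Ccr7 (0.80, limma, adjusted p = 0.0163), Cd86, Ccl17 and Fscn1. Itgae, the CD103 chain, and Klrd1, the CD94 receptor, are also T and NK cell genes. Elsewhere the iron exporter Slc40a1 rose by 1.22, the oxidase subunit Ncf4 by 0.90, the receptor Tlr6 by 0.72, the complement receptor C5ar1 by 0.71 and the factor Id2 by 0.65. The inhibitory lectin Clec12a was the 1 gene of the wider lists that fell (-0.40, limma, adjusted p = 0.0417).

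Markers of other cells were read beside these results. Over all genes, 8.89% were called higher and 10.7% lower in DMSO against fresh cells. For inhibitor against DMSO these shares were 2.38% and 1.98%. Of 16 thymocyte genes, 8 rose and 6 fell in DMSO against fresh cells, led by the coreceptor chain Cd8a (4.36) and the adhesion receptor Cd2 (3.35), and 1 rose and 2 fell in inhibitor against DMSO. Their summed intensity was 59856 and 60374 in inhibitor arrays, 59149 and 60715 in DMSO arrays, and 64652 and 61924 in fresh arrays. Without Il2ra, whose intensity spanned the widest range, the fresh arrays were the lowest and not the highest. The sums were then 54171 and 55039 in inhibitor arrays, 55379 and 57093 in DMSO arrays, and 50171 and 47998 in fresh arrays. Granule genes of neutrophils and monocytes rose in 10 of 20 cases in DMSO against fresh cells, led by Mmp8 (4.03) and Ifitm6 (3.02). Their summed intensity was 10244 and 13641 in inhibitor arrays, 7886 and 8296 in DMSO arrays, and 2406 and 2970 in fresh arrays, and without Mmp8 it was 6593 and 9245 in inhibitor arrays, 6394 and 6514 in DMSO arrays, and 2326 and 2847 in fresh arrays. The median deviation of the granule genes from their own means was 0.15 and 0.29 in inhibitor arrays, 0.14 and 0.26 in DMSO arrays, and -0.56 and -0.26 in fresh arrays, so the stimulated groups overlapped and both lay above fresh cells. Lyz2, Itgam and Cybb are also neutrophil genes. In inhibitor against DMSO 1 granule gene rose, Mmp8 (1.30), and 3 fell, Mpo (-0.86), Prtn3 (-0.80) and Ctsg (-0.74). Thymic epithelial genes fell in 16 of 18 cases in DMSO against fresh cells, with sums of 6438 and 6313 in inhibitor arrays, 5044 and 7224 in DMSO arrays, and 15277 and 15632 in fresh arrays. Interferon-stimulated genes fell in 15 of 15 cases in DMSO against fresh cells, and 6 rose in inhibitor against DMSO. NK and innate lymphoid genes fell in 9 of 13 cases and rose in 1 in DMSO against fresh cells, and rose in 5 and fell in 1 in inhibitor against DMSO. B cell genes were called higher in 0 of 11 cases in DMSO against fresh cells (1 at an unadjusted limma p under 0.05) and lower in 3, and Cd79b rose by 0.50 in inhibitor against DMSO. At that unadjusted p, 2963 of all 19937 genes were higher in DMSO against fresh cells. Of 6 erythroid genes 2 rose and 2 fell in DMSO against fresh cells, with Alas2, a haem synthesis enzyme, at -2.73. The part of these cells in the macrophage and dendritic cell values was not tested.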

How the data were processed

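RNA of Thy1.2+ cells was labelled with biotin and hybridised to 1-colour arrays, per the labels' protocols. The deposited values are linear intensity values made by the authors with RMA and the R package oligo, per the submitters' processing notes, with versions not given in the sources used here. They run from 8.75 to 25316, so log2 was taken before each test. Of 34760 probe sets 21640 have 1 gene symbol, 1321 several and 11799 none. Each gene was read from its brightest 1-symbol probe set, and no array was left out. All 6 arrays were fitted with 1 mean per group (limma 3.58.1, R 4.3.3, lmFit and eBayes). The fit had 3 residual degrees of freedom and a prior of 4.24. Tests were two-sided and p-values were adjusted over 19937 genes by the Benjamini-Hochberg method. The procedure was tested on simulated data with noise drawn independently for each gene. A shift shared by many genes within an array was not simulated. Over all genes, differences between replicates correlated at -0.074, 0.0948 and 0.00357 between groups, and the main fit had no replicate block. Among the 42 members replicate 2 was mostly higher in every group, and counts with a block are given below. The members and lists were chosen with earlier results of these data known. Genes named are the 42 members, Thy1, some of the up to 3 largest called changes per direction in each wider list, and up to 2 in lists of other cells. Mpo, Prtn3, Ctsg, Il2ra, Cd86, Ccl17, and Fscn1 (the last in inhibitor against DMSO) were named after their values were seen. Alternatives were a replicate block, other scalings, a filter on dim genes, the mean of probe sets, an intensity trend, the 4 arrays compared, and each array left out. Sums of a list without its widest-ranging gene were added after seeing the data. Promoters on mouse chromosome 18 were not used.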

Additional observations from a re-analysis of the deposited data

How the results depend on the processing

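Among the 42 members, the only genes rerun under each alternative, no called change reversed. With the replicate number as a block, 18 members were higher and 2 lower in DMSO against fresh cells, 10 were higher in inhibitor against DMSO, and 32 in inhibitor against fresh cells. With an intensity trend, 1610 genes were called in inhibitor against DMSO, against 869. With only the 4 arrays compared, 16 members were higher in inhibitor against DMSO, against 8, and 631 genes were called. Leaving out each array in turn, DMSO against fresh gave 2286 to 4070 genes (3902 with all), 9 to 24 members higher, 1 to 2 lower and a median change of 0.22 to 0.69. For inhibitor against DMSO it gave 93 to 661 genes, 0 to 16 members higher and a median of 0.39 to 0.54. For inhibitor against fresh it gave 3081 to 5068 genes (5174 with all), 24 to 30 members higher, 0 to 1 lower and a median of 0.70 to 1.31. An array left out leaves 1 array in its group, assumed to vary like the others, and the cause of each shift was not tested. Leaving out either array of the group not compared gave the same result as fitting only the 4 arrays compared. The 13 alternatives are therefore not all separate. Of 17 members called in DMSO against fresh, 10 stayed called under all 13 alternatives and 14 under the 7 that leave out no single array; of 8 in inhibitor against DMSO, 0 and 8; of 31 in inhibitor against fresh, 23 and 29. Vsig4 was left out by the filter on dim genes. With 2 arrays a group, small changes such as those of Mertk, Flt3 and Batf3 could not be told from the spread.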

Other observations

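A probe set annotated to both H2-DMb2 and H2-DMb1, the beta chains of the class II peptide exchanger DM, was not in the tests because it names more than 1 gene. It read 8.07 and 8.18 in inhibitor arrays, 7.42 and 7.70 in DMSO arrays, and 8.21 and 8.31 in fresh arrays, so the DMSO arrays were the lowest.

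Of 10 mast cell genes the 1 called in each comparison was Cpa3, a mast cell protease, at -1.61 in DMSO against fresh cells and -1.43 in inhibitor against DMSO. The list's summed intensity was 887 and 1020 in inhibitor arrays, 1481 and 1647 in DMSO arrays, and 3395 and 3824 in fresh arrays. Without Cpa3 it was 574 and 620 in inhibitor arrays, 594 and 620 in DMSO arrays, and 605 and 799 in fresh arrays. The median changes of all 10 genes, Cpa3 included, were -0.05 in DMSO against fresh cells and -0.04 in inhibitor against DMSO. Mesenchymal and endothelial genes had sums of 4538 and 4581 in inhibitor arrays, 3987 and 4576 in DMSO arrays, and 5219 and 5644 in fresh arrays. Without Pdgfrb they were 3976 and 4041 in inhibitor arrays, 3304 and 3835 in DMSO arrays, and 3118 and 3431 in fresh arrays. The median change of the whole list, Pdgfrb included, was 0.01 in DMSO against fresh cells and 0.20 in inhibitor against DMSO.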
